A study of Mus musculus with 6 samples.

Results

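The collagen genes of SL4 cells were compared between cells with and without overexpression of SEMA6A. Members were the genes of the deposited table whose name is Col, a number, a and a number, which gave 44 of 53700 listed genes. The 16 that averaged 1 TPM or more over the 6 libraries are described one by one, and the other 28 are counted. SL4 is a luciferase-expressing mouse CRC cell line. RNA-seq was performed on 3 control libraries (pLV-Control) and on 3 libraries of SL4 cells made to overexpress SEMA6A stably by lentivirus (pLV-SEMA6A). Whether the controls carried an empty vector is not settled by the labels and methods, which name them both as SL4 and as pLV-Control. No independently made pLV-SEMA6A lines are described, so an effect of SEMA6A cannot be told apart from a difference between the lines, and the p-values measure the spread between these libraries, which may be technical.

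Collagens are trimers of chains wound into a triple helix. Fibrillar collagens, such as types I, III and V, assemble into the fibrils of connective tissue, and type IV collagen forms the network of basement membranes. Other types bind to the surface of fibrils, anchor basement membranes to the tissue beneath, or build separate networks and filaments. In the colon, fibrillar collagens are mainly made by fibroblasts of the stroma, while epithelial cells contribute to the basement membrane.

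The 3 controls had Sema6a at 0, and the pLV-SEMA6A libraries had it between 98.7 and 118 TPM. TPM values are divided by transcript length and brought to one total per library, so levels may be compared between genes, but they hold no sequencing depth. The values listed here summed to 984475 to 986444 TPM in the controls and 977400 to 977972 TPM in pLV-SEMA6A. The groups thus differed in how much of that total was listed, and what this adds to the results was not tested. Of 9 colon epithelial markers, 0 reached a mean of 1 TPM. Their summed level spanned 0.13 to 0.71 TPM over the controls and 0.25 to 0.58 TPM over pLV-SEMA6A, and Epcam and Cdx2 were listed at 0 in each library. The defining epithelial markers were thus at or near 0 in both groups, against the label of a CRC line. Of 9 fibroblast and pericyte markers, 4 reached a mean of 1 TPM. The 9 summed to 46.2 to 49.3 TPM in the controls and 103 to 107 TPM after overexpression. Of the 4, only Acta2, smooth muscle actin, was higher, from 29.9 to 33.4 TPM up to 90.8 to 95.7 TPM. Pdgfrb was lower, at 10.2 to 10.7 TPM in the controls and 6.53 to 6.92 TPM in pLV-SEMA6A. Pdgfra was lower too, at 1.54 to 2.14 TPM and 0.63 to 0.92 TPM. Dcn overlapped, at 1.95 to 2.5 TPM and 1.7 to 2.58 TPM. Lum was at most 0.11 TPM and Postn at most 0.14 TPM. Leukocyte markers summed to at most 0.64 TPM and endothelial markers to at most 0.22 TPM. The part of these marker differences in the collagen results was not tested. In bulk samples of this kind, fewer cells of a type and less RNA per cell cannot be told apart.

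The sequences just before the transcription start are shown for genes that the results turn on: Col3a1 and Col5a1, which were higher in pLV-SEMA6A, and Col8a1, Col4a5 and Col4a6, which were lower. They are the 250 bases before the RefSeq start on GRCm38.p6, written from 5′ to 3′ on the strand of the gene. The table of promoters held 12 of the 16 genes. It lacked Col5a2, Col1a1, Col12a1 and Col9a3, so the motif counts do not cover them, and Col1a1 and Col12a1 had the largest rises. Capitals mark matches to 5 motifs on either strand, which are the TATA box (TATAAA), the so-called CAAT box (CCAAT), the GC box (GGGCGG, read as CCGCCC when on the other strand), a STAT motif (TTCNNNGAA) and an AP-1 motif (TGANTCA). No match overlaps another in the sequences printed.
Col3a1, chr1:45311288-45311537, plus strand: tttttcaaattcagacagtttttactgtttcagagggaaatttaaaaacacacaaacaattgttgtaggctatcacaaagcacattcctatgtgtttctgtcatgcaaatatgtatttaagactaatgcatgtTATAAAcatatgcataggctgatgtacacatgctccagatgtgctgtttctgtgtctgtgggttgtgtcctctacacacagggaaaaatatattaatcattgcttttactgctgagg
Col5a1, chr2:27886175-27886424, plus strand: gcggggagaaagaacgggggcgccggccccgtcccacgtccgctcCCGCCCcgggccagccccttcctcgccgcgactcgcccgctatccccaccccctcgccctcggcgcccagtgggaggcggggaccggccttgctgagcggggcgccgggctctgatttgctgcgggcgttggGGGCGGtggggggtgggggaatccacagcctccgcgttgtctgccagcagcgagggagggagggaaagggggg
Col8a1, chr16:57754738-57754987, minus strand: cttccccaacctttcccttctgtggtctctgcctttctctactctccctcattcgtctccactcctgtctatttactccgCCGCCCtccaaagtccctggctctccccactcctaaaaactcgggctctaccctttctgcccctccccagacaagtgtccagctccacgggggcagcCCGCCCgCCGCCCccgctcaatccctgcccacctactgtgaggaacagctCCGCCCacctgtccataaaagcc
Col4a5, chrX:141475169-141475418, plus strand: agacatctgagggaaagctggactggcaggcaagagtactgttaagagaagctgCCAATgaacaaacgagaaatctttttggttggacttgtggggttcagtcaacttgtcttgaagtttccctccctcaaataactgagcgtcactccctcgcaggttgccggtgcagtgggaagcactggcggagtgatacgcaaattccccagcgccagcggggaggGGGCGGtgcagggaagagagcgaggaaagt
Col4a6, chrX:141474077-141474326, minus strand: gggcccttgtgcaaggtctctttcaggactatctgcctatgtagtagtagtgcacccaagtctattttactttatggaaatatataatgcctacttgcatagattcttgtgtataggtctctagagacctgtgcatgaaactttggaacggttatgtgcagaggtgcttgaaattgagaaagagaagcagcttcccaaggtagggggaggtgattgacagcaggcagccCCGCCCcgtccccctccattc
The GC box was found in 10 of the 14 promoters of the described genes (Col18a1 and Col6a2 have 2 each) and in 32.7% of 32851 promoters of the same length. Col8a1 held 4 matches and Col5a1 held 2, so the motif stood before genes of both directions. Col3a1 held the TATA box letters at position −117 from the start and no GC box, and 35.2% of its bases were G or C, against a median of 52.4% over all promoters and 76.4% in Col5a1. The CAAT box was found in 5 of the 14 and in 33.9% of all promoters, the AP-1 motif in 1 and in 6.75%, the TATA box in 1 and in 12.4%, and the STAT motif in 0 and in 7.02%. Col4a5 and Col4a6 are neighbours on chromosome X that are transcribed away from each other, with 1342 bases between their starts. These matches are descriptions of letters and not of binding.

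Col3a1, the sole chain of type III collagen, had the highest level of the 44 genes, with 24.8% ± 1.54 of the summed collagen TPM in pLV-Control and 34.4% ± 1.07 in pLV-SEMA6A (SD over 3 libraries each). In pLV-Control it was followed by Col8a1 (91.5 TPM), Col16a1 (61.4 TPM), Col5a2 (51.6 TPM) and Col4a5 (43.4 TPM), and in pLV-SEMA6A by Col16a1 (65.7 TPM), Col8a1 (56.0 TPM), Col5a1 (43.4 TPM) and Col5a2 (36.7 TPM). The summed level of all 44 genes was 478 ± 4.56 TPM for the controls and 500.5 ± 6.52 TPM under SEMA6A overexpression (SD over 3 libraries each), which is 0.0485% and 0.0512% of the listed TPM. The total was thus close in both groups, from 474 to 483 TPM and from 494 to 507 TPM, without overlap. Its composition differed more. Fibrillar genes made up 42.8% ± 0.95 of the sum in pLV-Control and 52.6% ± 0.70 in pLV-SEMA6A, basement membrane genes 17.2% ± 0.64 and 14.5% ± 0.45, and the other genes 40.0% ± 0.61 and 32.9% ± 0.60 (SD over 3 libraries each). The plot of sums by class shows this exchange in each library.

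**Figure D1:**
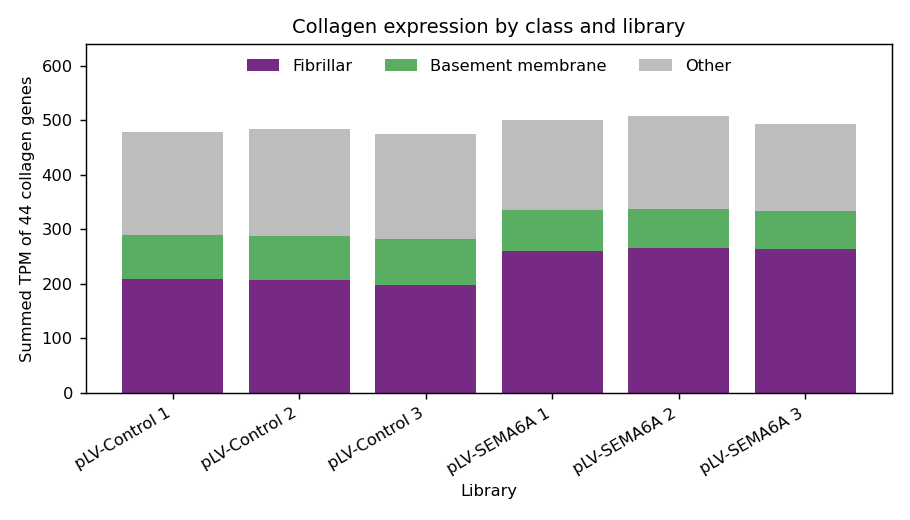
Stacked bars give the summed TPM (vertical axis, from 0) of the 44 collagen genes in each of the 6 libraries (horizontal axis), split into fibrillar, basement membrane and other genes. The bars reach 474 to 483 TPM for pLV-Control and 494 to 507 TPM for pLV-SEMA6A, and the fibrillar part is 198 to 209 TPM and 260 to 266 TPM.

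Differences were tested on log2(TPM + 1) with limma for the 12510 genes that averaged 1 TPM or more. Fold changes are given on this scale, where low genes appear to change less than they do in TPM. A gene rose or fell if its Benjamini-Hochberg adjusted p was under 0.05, and was counted as a DEG if its absolute log2 fold change was also over 0.5. Of the 16 collagen genes tested, 7 rose and 4 fell, and 7 were DEGs, with 5 upregulated and 2 downregulated. Over all genes tested, 47.6% passed the test (19.5% higher and 28.2% lower) and 15.9% were DEGs (5.12% higher and 10.8% lower). Among the collagen genes 68.8% passed and 43.8% were DEGs, with 31.2% upregulated. The libraries of the groups did not overlap in 13 of the 16 genes (9 higher and 4 lower in pLV-SEMA6A), and in 58.5% of all genes tested (23.8% higher and 34.7% lower). The median log2 fold change was 0.14 for the 16 genes and −0.06 for all genes tested. After subtraction of library medians (centring), the DEGs of all genes went from 640 higher and 1347 lower to 1002 higher (8.01%) and 961 lower (7.68%), while the 7 collagen DEGs all kept their call and direction. By the adjusted p alone, centring turned the balance over all genes, with 46.7% that passed, 26.9% higher and 19.8% lower, and 9 collagen genes then rose and 4 fell. Col12a1 (0.95 TPM in pLV-Control) and Col9a3 (0.93 TPM in pLV-SEMA6A) reached the mean of 1 TPM through their higher group, so the counts over the 16 genes are given as a description.

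**Figure D2:**
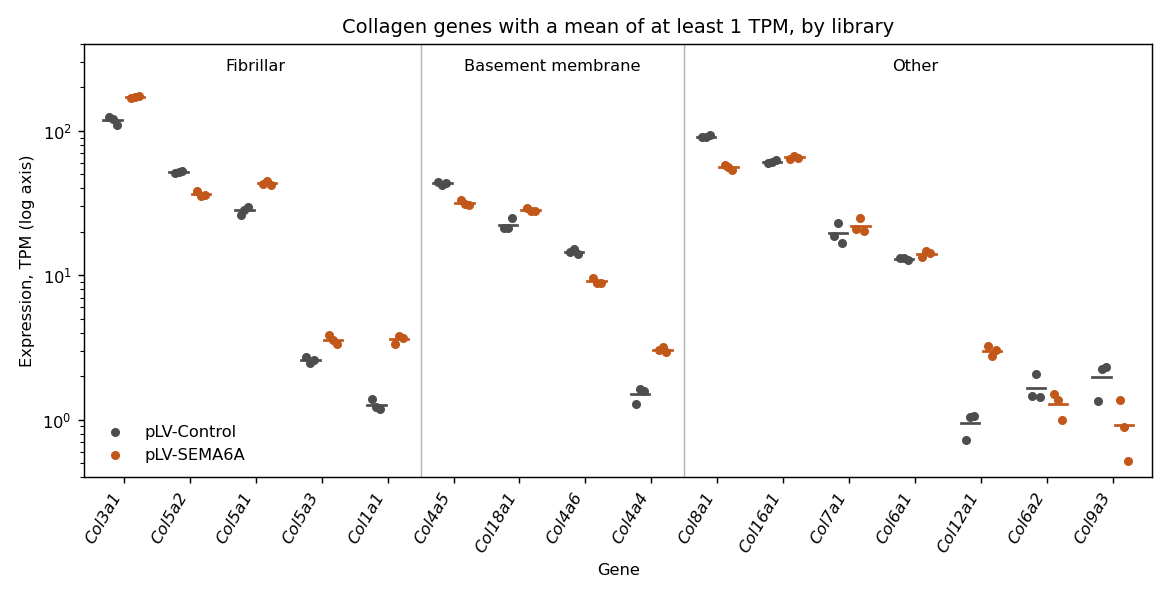
Each point is the TPM of one library (vertical axis, log scale) for the 16 described collagen genes (horizontal axis), with a line at the group mean of 3 libraries. Col3a1 and Col5a1 lie higher in every pLV-SEMA6A library, and Col8a1, Col5a2, Col4a5 and Col4a6 lower.

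Fibrillar collagen genes were higher in pLV-SEMA6A in 4 of the 5 that were tested. All 5 passed the test, with 4 risen and 1 fallen, and 3 were upregulated DEGs, beside 47.6% of all genes tested that passed and 5.12% that were upregulated DEGs. Col3a1, on chromosome 1, was at 125, 122 and 109.6 TPM in the controls against 168, 172 and 176 TPM in pLV-SEMA6A. The lowest pLV-SEMA6A value was well above the highest pLV-Control value, and the means of 119 ± 8.05 and 172 ± 3.85 TPM (SD over 3 libraries each) gave a log2 fold change of 0.53 (SE 0.05, limma adjusted p = 0.000345). Without pLV-Control replicate 3, the lowest of its group, the log2 fold change was 0.48, under the minimum for DEGs. Col5a1, on chromosome 2, encodes the alpha-1 chain of type V collagen, which sits inside type I and III fibrils and regulates how they start. It was at 26.2, 28.3 and 29.9 TPM in the controls against 43.1, 45.2 and 42.0 TPM in pLV-SEMA6A. Every pLV-SEMA6A library was above every control, with a log2 fold change of 0.61 (SE 0.06, limma adjusted p = 0.000324).
Col5a2, on chromosome 1, encodes the alpha-2 chain of the same type V molecule and moved the other way. Its values were 50.8, 51.7 and 52.5 TPM in pLV-Control and 38.7, 35.4 and 36.0 TPM in pLV-SEMA6A. The groups did not overlap, and the log2 fold change was −0.48 (SE 0.04, limma adjusted p = 0.000251), just short of the minimum for DEGs, which it passed without pLV-SEMA6A replicate 1 (−0.52). Col5a2 and Col3a1 are neighbours that lie tail to tail. Col3a1 rose while its neighbour fell. Col5a3, a rarer type V chain, was at 2.61 ± 0.11 TPM and 3.59 ± 0.24 TPM (SD over 3 libraries each). Its rise, with an adjusted p of 0.0291 from limma, was lost in some alternatives, since the adjusted p was 0.0968 without a filter and under 0.05 in 1 of 6 fits with a library removed.
Type I collagen, the main fibrillar type of fibroblasts, was low. Col1a1, on chromosome 11, was at 1.39, 1.23 and 1.19 TPM in the controls against 3.33, 3.80 and 3.68 TPM in pLV-SEMA6A. All pLV-SEMA6A libraries were above the controls, a ratio of means of 2.84 and a log2 fold change of 1.02 (SE 0.12, limma adjusted p = 0.000681). Col1a2, its partner chain, stayed under the mean of 1 TPM, at 0.42, 0.51 and 0.33 TPM in the controls against 1.13, 0.69 and 0.79 TPM in pLV-SEMA6A. These did not overlap either, and in the fit without a filter the adjusted p from limma was 0.0667. Even in pLV-SEMA6A, Col1a1 was at 3.60 TPM against 172 TPM for Col3a1. Col11a1, another fibrillar chain, was at 0.58 to 0.61 TPM and 0.85 to 0.94 TPM, with an adjusted p of 0.0764 from limma without a filter.

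Type V collagen is mostly built of 2 alpha-1 chains and 1 alpha-2 chain, so the ratio of both transcripts was examined. Col5a1 over Col5a2 was 0.517, 0.548 and 0.571 in the pLV-Control libraries and 1.12, 1.28 and 1.16 in the pLV-SEMA6A libraries. The alpha-2 transcript was the more abundant in every control and the alpha-1 transcript in every pLV-SEMA6A library. The log2 ratio differed by 1.12 (exact permutation test, two-sided, p = 0.1, adjusted over 2 ratios p = 0.2), where 0.1 is the smallest p this permutation test can give with 3 libraries against 3, so it cannot reach 0.05. For type VI collagen, Col6a1 over Col6a2 was 8.93, 6.37 and 8.83 in pLV-Control and 8.90, 10.8 and 14.3 in pLV-SEMA6A. These overlapped, with a difference in log2 ratio of 0.48 (exact permutation p = 0.2, adjusted p = 0.2). Col1a1 over Col1a2 and Col4a1 over Col4a2 were not formed, because Col1a2, Col4a1 and Col4a2 were under 1 TPM.

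**Figure D3:**
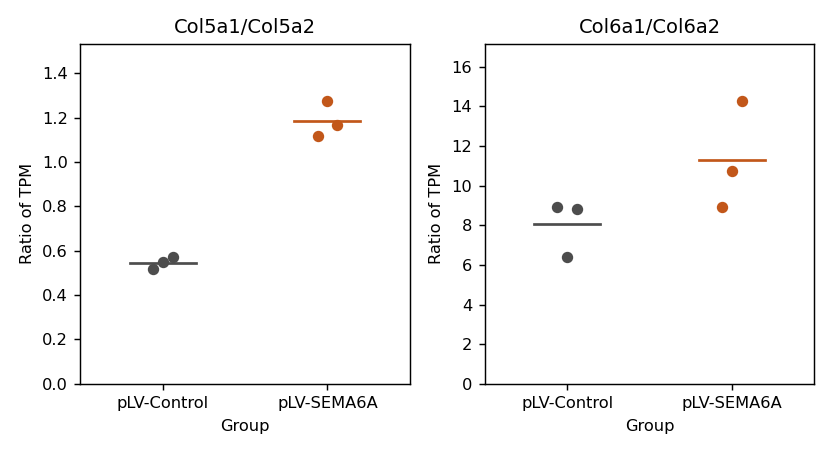
Points give the ratio of the TPM of the alpha-1 to that of the alpha-2 chain (vertical axis, from 0) in each library of the groups (horizontal axis), with a line at the mean of 3 libraries. Col5a1 over Col5a2 lies at 0.517 to 0.571 in pLV-Control and 1.12 to 1.28 in pLV-SEMA6A, while Col6a1 over Col6a2 overlaps between the groups.

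Basement membrane genes moved in both directions. Of 8 listed, 4 were tested, of which 2 rose and 2 fell, beside 19.5% and 28.2% of all genes tested. Col4a1 and Col4a2, the chains of the common type IV network, were at most 0.01 and 0.03 TPM in any library, so Col4a5 and Col4a6 held most of the type IV transcripts listed. Col4a5, on chromosome X, was at 44.4, 42.1 and 43.6 TPM in the controls against 33.0, 31.2 and 30.8 TPM in pLV-SEMA6A. Its log2 fold change was −0.44 (SE 0.04, limma adjusted p = 0.000342), with no overlap. Col4a6, its head-to-head neighbour, was at 14.6, 15.1 and 14.1 TPM in the controls against 9.56, 8.89 and 8.81 TPM in pLV-SEMA6A. It was a downregulated DEG with a log2 fold change of −0.63 (SE 0.06, limma adjusted p = 0.000315). Chains of both genes join in one trimer, and both fell in all pLV-SEMA6A libraries. The ratio of Col4a5 to Col4a6, looked at after the values were seen, was 2.78 to 3.11 and 3.45 to 3.51.
Col4a4 and Col4a3, on chromosome 1, form a second head-to-head pair whose chains join with that of Col4a5 in the network of the kidney glomerulus. Col4a4 was at 1.28, 1.63 and 1.59 TPM in the controls against 3.06, 3.19 and 2.94 TPM in pLV-SEMA6A. Every pLV-SEMA6A value was above the controls, with a ratio of means of 2.04 and a log2 fold change of 0.70 (SE 0.12, limma adjusted p = 0.00378). Col4a3 stayed low, at 0.16 to 0.68 TPM and 0.32 to 0.44 TPM, with overlap. Col18a1, on chromosome 10, encodes a basement membrane proteoglycan whose end fragment is endostatin. It rose from 22.4 ± 2.11 to 28.3 ± 0.66 TPM (SD over 3 libraries each), a log2 fold change of 0.33 with an adjusted p of 0.00900 from limma. Slc19a1, which overlaps it on the other strand, had a mean of 25.7 TPM, and whether strand was used in counting is not given in the sources used here. Of the 31-base stretches of Col18a1 transcripts, 0.511% were found in other genes on either strand, and Slc27a1 shared the most. What the overlap adds to its level was not tested.

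**Figure D4:**
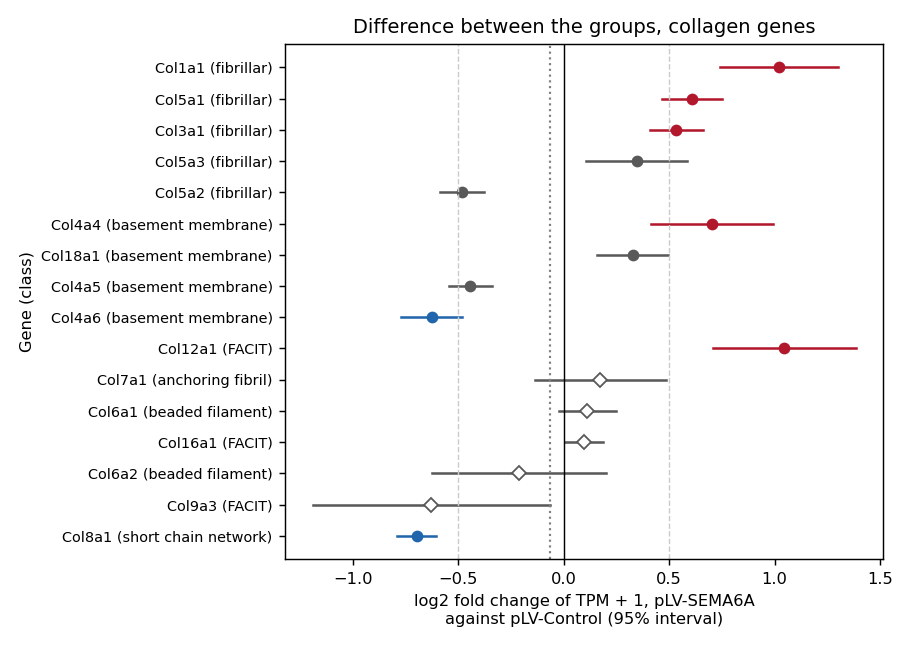
Points are log2 fold changes of TPM + 1 (horizontal axis) with 95% limma intervals for the 16 described collagen genes (vertical axis), red and blue for up- and downregulated DEGs. Filled circles have an adjusted p under 0.05 and open diamonds do not, dashed lines mark −0.5 and 0.5, and the dotted line is the median of all tested genes at −0.06. Col12a1 and Col1a1 lie farthest right, at 1.05 and 1.02, and Col12a1 was tested only through its level in pLV-SEMA6A.

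The other 7 tested genes held the largest fall and the largest rise that passed the test among the 16. Col8a1, on chromosome 16, encodes a short-chain collagen of vessel walls and of the membrane behind the cornea. It was at 91.1, 90.2 and 93.0 TPM in the controls against 58.3, 56.1 and 53.6 TPM in pLV-SEMA6A. The groups were far apart relative to their spread, with a log2 fold change of −0.70 (SE 0.04, limma adjusted p = 3.8e-05), and its part of the collagen sum went from 19.1% ± 0.47 to 11.2% ± 0.42 (SD over 3 libraries each). Col12a1, on chromosome 9, encodes a collagen that binds to fibrils and links them to the surrounding matrix. It was at 0.73, 1.04 and 1.07 TPM in the controls against 3.22, 2.76 and 3.06 TPM in pLV-SEMA6A. All pLV-SEMA6A values were higher, with a ratio of means of 3.18 and a log2 fold change of 1.05 (SE 0.14, limma adjusted p = 0.00132). With a pLV-Control mean of 0.95 TPM, it was tested only through its level in pLV-SEMA6A. In the fit without a filter its adjusted p from limma was 0.00364.
Col16a1, on chromosome 4, is another fibril-associated type. Its values were 59.7, 61.2 and 63.3 TPM in pLV-Control and 64.1, 67.6 and 65.3 TPM in pLV-SEMA6A. The groups lay apart by under 1 TPM and the log2 fold change of 0.10 (95% interval 0.01 to 0.18) did not pass, with an adjusted p of 0.0750 from limma. After centring on library medians it was 0.19 (adjusted p = 0.00612). Col6a1, a chain of the beaded filaments of type VI, likewise had 0.11 (adjusted p = 0.146), and 0.20 after centring (adjusted p = 0.0230, all from limma). Col7a1, the collagen of anchoring fibrils, was at 16.8 to 23.2 TPM and 20.4 to 24.9 TPM, overlapping, with a log2 fold change of 0.17 (95% interval −0.14 to 0.48, adjusted p = 0.310 from limma). With a term for the replicate number (the replicate block), its adjusted p from limma was 0.0732. With centring and this block, a combination chosen after seeing the data, it was 0.0257. Col6a2 had −0.21 (95% interval −0.63 to 0.20) and overlapped. Col9a3, a cartilage type, was at 1.35 to 2.31 TPM and 0.52 to 1.37 TPM, with a log2 fold change of −0.63 (95% interval −1.19 to −0.07, limma adjusted p = 0.0662). Its adjusted p was 0.0441 without pLV-Control replicate 1 and 0.0462 without pLV-SEMA6A replicate 1.

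The remaining 28 collagen genes were under a mean of 1 TPM. Just above this minimum were Col9a3 (1.45 TPM) and Col6a2 (1.47 TPM), and just below it Col11a2 (0.91 TPM) and Col11a1 (0.74 TPM). Of the 28, 6 were listed at 0 in each library (Col9a1, Col15a1, Col9a2, Col13a1, Col28a1 and Col6a5), which with TPM may also be a failed estimate. In all, 15 of the 28, these 6 included, were under 0.1 TPM in all 6 libraries. Col6a3, the chain that completes the usual type VI trimer with Col6a1 and Col6a2, was at 0.03 to 0.08 TPM and 0.07 to 0.32 TPM. Col17a1, a transmembrane collagen of epithelial hemidesmosomes, was at most 0.02 TPM.
When transcripts were cut into stretches of 31 bases, the part found in other genes as well was 5.35% for Col9a3 (with the overlapping Tcfl5), 2.18% for Col5a1, 1.12% for Col3a1 and at most 0.511% for the other described genes.

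The genes that modify, fold, cut, link and bind collagen were examined as a list of 53, of which 40 were tested. Of these, 7 rose and 13 fell, and 2 were upregulated and 5 downregulated DEGs. Over all genes tested 47.6% passed, and 15.9% were DEGs (5.12% upregulated and 10.8% downregulated). Their median log2 fold change was −0.07, against −0.06 for all genes. After centring on library medians the balance turned, with 13 risen and 10 fallen. Then 2 were upregulated and 3 downregulated DEGs, beside 8.01% and 7.68% of all genes tested. The counts by step that follow stand beside 19.5% risen and 28.2% fallen over all genes tested, and 26.9% and 19.8% after centring. With so few genes per step they are descriptions.
Chain modification occurs in the endoplasmic reticulum, where prolyl hydroxylases stabilise the helix and lysyl hydroxylases prepare crosslinks. Of 13 tested genes of this step, 3 rose and 5 fell, and after centring 4 rose and 3 fell. Plod1, lysyl hydroxylase 1, fell from 34.2 ± 0.31 to 22.9 ± 0.57 TPM (SD over 3 libraries each), a log2 fold change of −0.56 (limma adjusted p = 8.2e-05), and −0.47 after centring. Plod3, named after its values were seen, had −0.45. P3h4, a partner of lysyl hydroxylation complexes, was at 11.2, 10.5 and 10.6 TPM in the controls against 17.8, 15.0 and 15.3 TPM in pLV-SEMA6A, and rose by a log2 fold change of 0.53 (limma adjusted p = 0.00164). Without pLV-SEMA6A replicate 1 its log2 fold change was 0.46, which left 1 upregulated DEG in the list. P4hb, a subunit of prolyl 4-hydroxylase, was at 400.02 ± 14.8 and 414 ± 6.63 TPM (SD over 3 libraries each) and did not pass (log2 fold change 0.05, 95% interval −0.03 to 0.13).
Among 9 chaperone and export genes, 0 rose and 3 fell, and after centring 3 rose and 3 fell. Serpinh1, the collagen-specific chaperone HSP47, was at 1030, 1013 and 1068 TPM in the controls against 1056, 1031 and 1061 TPM in pLV-SEMA6A. Its level was above that of every collagen gene in both groups, which overlapped, with a log2 fold change of 0.02 (95% interval −0.04 to 0.08). After centring, Serpinh1 had 0.11 (adjusted p = 0.0152) and P4hb 0.14 (adjusted p = 0.0124, both from limma). Fkbp14 and Fkbp7, prolyl isomerases of the endoplasmic reticulum, were downregulated DEGs. Fkbp14 went from 4.78 ± 0.45 to 2.48 ± 0.06 TPM (SD over 3 libraries each), a log2 fold change of −0.73, and Fkbp7 had −0.50. Fkbp7 lay at the minimum fold change and was no DEG after centring (−0.41), without pLV-Control replicate 3 (also −0.50 when rounded) or without pLV-SEMA6A replicate 1 (−0.48).
Propeptide cleavage lets procollagen assemble into fibrils. Of 5 tested genes of this step, 3 rose and 0 fell (4 and 0 after centring). Pcolce2, an enhancer of the C-proteinase, was at 10.6, 11.4 and 11.6 TPM in the controls against 22.1, 17.7 and 27.2 TPM in pLV-SEMA6A. Its pLV-SEMA6A values were spread but all higher, with a log2 fold change of 0.92 (SE 0.14, limma adjusted p = 0.00255). Bmp1, the C-proteinase itself, had 0.19 and Pcolce 0.14, both named after their values were seen. Pcolce was no longer under an adjusted p of 0.05 in 4 of 6 fits with a library removed.
Crosslinking enzymes included 2 of 4 that fell and 0 that rose, also after centring. Over all genes tested 28.2% fell, and 19.8% after centring. Lox, lysyl oxidase, was at 73.0, 73.2 and 73.7 TPM in the controls against 59.8, 59.1 and 57.0 TPM in pLV-SEMA6A, without overlap, and had a log2 fold change of −0.32 (SE 0.03, limma adjusted p = 0.000369). Loxl4, named after its values were seen, had −0.43.
Bgn, a proteoglycan that binds fibrils, was the most abundant downregulated DEG of the list, falling from 873 ± 14.3 to 578 ± 1.62 TPM (SD over 3 libraries each), a log2 fold change of −0.59 (SE 0.02, limma adjusted p = 4.3e-06). After centring Bgn had −0.5004, barely past the minimum for DEGs. Among 7 receptors, 1 rose and 2 fell, and after centring 2 rose and 1 fell. Itga10, a collagen-binding integrin chain, was at 7.29, 7.50 and 7.02 TPM in the controls against 4.16, 4.26 and 3.10 TPM in pLV-SEMA6A, with a log2 fold change of −0.78 (limma adjusted p = 0.00202). Ddr2, a receptor tyrosine kinase for fibrillar collagen, named after its values were seen, went from 114 ± 2.40 to 144 ± 3.99 TPM (SD over 3 libraries each), a log2 fold change of 0.34 (limma adjusted p = 0.000299).

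**Figure D5:**
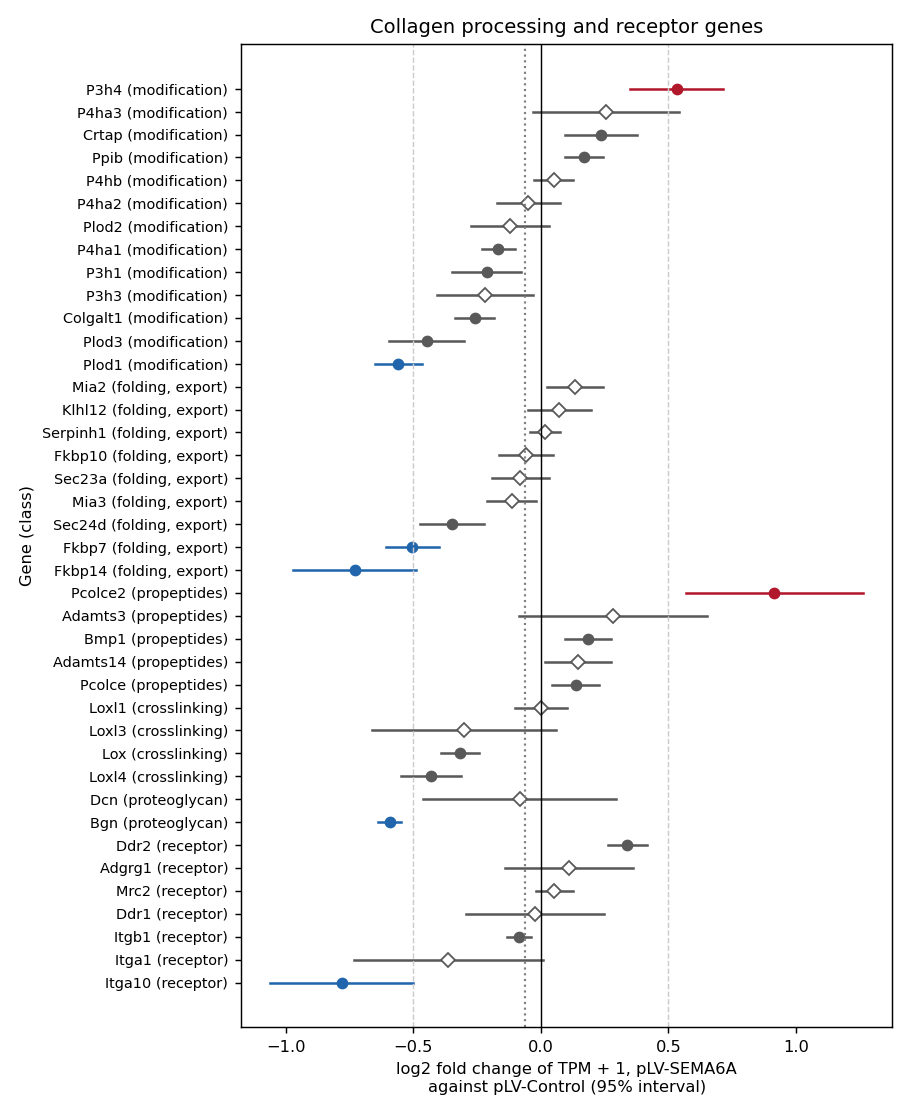
Points are log2 fold changes of TPM + 1 (horizontal axis) with 95% limma intervals for the 40 tested processing and receptor genes (vertical axis), red and blue for up- and downregulated DEGs. Filled circles have an adjusted p under 0.05 and open diamonds do not, dashed lines mark −0.5 and 0.5, and the dotted line is the median of all tested genes at −0.06. Pcolce2 lies highest at 0.92 and Itga10 lowest at −0.78.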

How the data were processed

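RNA-seq of SL4 cells gave 6 libraries, 3 for each group. Per the methods, oligo(dT) beads captured mRNA, which was fragmented, reverse transcribed from random primers and read by Illumina sequencing. The submitters' processing notes name HISAT, Bowtie2, RSEM and the build mm39, with no versions, and the methods name DESeq2 for the comparison. The authors deposited TPM per library with 2 decimals, and group means that were not used here. TPM keeps no read numbers, so no count model, depth or detection limit could be had.

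The limma package (3.58.1, R 4.3.3) was applied to log2(TPM + 1) with its trend setting and no term but the group, for genes averaging 1 TPM or more, and tests were two-sided with Benjamini-Hochberg adjustment over all 12510 genes. The steps were tested on simulated data. Ratios were tested over libraries with SciPy 1.17.1. The members and lists were chosen with earlier results of these data known. Named are the 16 collagen genes, the DEGs of the processing list, Serpinh1, P4hb and Lox, and others where stated. All 44 members occur in GENCODE M21 (GRCm38) by identifier. That annotation and the RefSeq promoters (GRCm38.p6) are of another build than mm39, so they served for chromosomes, neighbours, transcripts and promoter sequences. The alternatives were a pseudocount of 0.1, no filter, a filter at 5 TPM, centring on library medians, the replicate block, no trend, no minimum fold change and leaving out each library.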

Additional observations from a re-analysis of the deposited data

How the results depend on the processing

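No collagen gene of the 16 changed direction under any alternative in which it was tested, and 189 of 202 pairs of a gene and an alternative stayed on the same side of an adjusted p of 0.05. The 7 collagen DEGs all remained DEGs under each alternative with 2 exceptions. With a filter at 5 TPM, 4 collagen DEGs (2 upregulated) of 10 tested were left, because fewer genes were tested. Over all genes, 1477 of 9841 were then DEGs (518 upregulated). Without pLV-Control replicate 3, Col3a1 missed the minimum fold change. With each library left out, 6 to 9 collagen genes were DEGs, 4 to 5 upregulated and 2 to 4 downregulated. The 4 downregulated came without pLV-SEMA6A replicate 1 (Col5a2 and Col9a3 added). In the same fits 1900 to 1975 of 12465 to 12543 genes tested were DEGs, 616 to 631 upregulated and 1280 to 1346 downregulated. Without a minimum fold change the counts were 11 collagen genes (7 higher, 4 lower), 20 processing genes (7 higher, 13 lower) and 5959 of all genes (2436 higher, 3523 lower). By that rule centring turned the balance of the last 2 counts, to 13 higher and 10 lower processing genes and 3370 higher and 2474 lower of all genes. The processing list held 5 to 8 DEGs of 40 tested with each library left out, 1 to 2 upregulated and 4 to 6 downregulated. These stand beside the 1900 to 1975 DEGs over all genes in those fits. Centring on library medians gave 1002 upregulated and 961 downregulated DEGs over all genes, and 3 downregulated in the processing list. Centring with the replicate block, chosen after seeing the data, gave 975, 928 and 3. The cause was not tested.

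Over all genes tested, same-numbered libraries showed no shared deviation (correlations of −0.08 to −0.02). This cannot show whether they were handled together, and single genes may differ. With the replicate block 7 collagen genes, 7 processing genes and 1924 of all genes were DEGs, and Col5a3 was the one collagen gene that lost an adjusted p under 0.05. The log2 difference of the type V ratio was 1.07 to 1.16 and that of the type VI ratio 0.30 to 0.64 with each library left out. Adding 1 to both TPM values gave 1.09 and 0.32. With 1 added the exact permutation p of type VI was 0.1, the smallest this test can give. The groups then lay apart, so the overlap of the type VI ratio depended on the added value.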

Other observations

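Col24a1, a fibrillar gene under the minimum of 1 TPM, was at 0.17 to 0.47 TPM for the controls, while the pLV-SEMA6A libraries had 0.10, 1.88 and 0.32 TPM, so 1 library set its group mean. Col26a1 was at 0.58, 0.56 and 0.01 TPM in the controls against 0.37, 0 and 0.39 TPM in pLV-SEMA6A.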
